A study of Mus musculus with 4 samples.

Results

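Amino acid transporter genes were examined in embryoid bodies of the mouse, which are clumps of embryonic stem cells left to differentiate in suspension. The set was every gene symbol in the count files that belongs to the numbered members of the Slc1, Slc3, Slc7, Slc36, Slc38 and Slc43 families, with Slc38a4 left out. It held 41 of 24015 genes. The 2 Trim33-deficient libraries came from bodies in which deficiency was induced by 4-hydroxytamoxifen on day 4, and the 2 Control libraries are labelled wild type. Bodies of both groups were harvested on day 7. Per the labels, the stem cell lines, of outbred strain and kept without feeders in LIF and 2i, had both Trim33 alleles flanked by loxP sites (Trim33-flox) together with UbcCreERT2, a tamoxifen-dependent Cre named for the ubiquitin C promoter. The labels do not settle whether Control bodies carried these alleles or received 4-hydroxytamoxifen, nor how many lines were used.

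Cells cannot make every amino acid they need, and charged or polar ones do not cross membranes unaided, so import rests on families of carriers with overlapping substrates. The SLC7 family splits into cationic carriers that work alone and light chains that reach the surface only when bound to a heavy chain glycoprotein of the SLC3 family. SLC1 carriers take up glutamate or exchange neutral amino acids, SLC38 carriers move glutamine and other neutral amino acids with sodium, and several SLC36 and SLC38 members sit on the lysosome, where amino acids are sensed by the mTORC1 kinase complex. In the early embryo the visceral endoderm, an absorptive epithelium, takes up maternal protein, digests it in lysosomes and passes amino acids on.

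The libraries held 13808837 and 12109547 counts in genes for Trim33-deficient bodies and 12390541 and 10422738 for Control bodies. Trim33 itself, a chromatin-binding ubiquitin ligase, stood at 43.1 ± 1.11 CPM in Trim33-deficient and 101 ± 11.4 CPM in Control bodies (SD, n = 2 each; CPM, counts scaled to library size after TMM normalisation). Control replicate 1 stood apart from the other libraries (Pearson r across genes at most 0.952, against 0.978 for the closest pair). Of 22 tested markers of visceral and yolk sac endoderm, 20 had a log2 fold change of Trim33-deficient over Control below 0, with a median of −2.48, and DESeq2 called 17 lower and 0 higher, with none at 0 counts in every library. Their summed level was 681 and 799 CPM in the Trim33-deficient libraries, against 1794 and 2364 CPM in the Control libraries. Cardiomyocyte markers had 8 of 8 above 0, with summed levels of 926 and 159 CPM in Trim33-deficient against 102 and 286 CPM in Control libraries. Smooth muscle and fibroblast markers had 8 of 8 above 0, at 3547 and 9524 CPM in Trim33-deficient against 978 and 5574 CPM in Control libraries. Pluripotency markers had 8 of 9 below 0, at 131 and 188 CPM in Trim33-deficient against 304 and 206 CPM in Control libraries. None of these markers was at 0 counts in every library, and the part of these cell types in the values of the carrier genes was not tested. Fewer cells of a type and less RNA per cell cannot be told apart in these bulk samples.

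Promoters of 4 members are shown first because the results below turn on these genes or because they carry motifs known from amino acid and lysosomal control. Each runs from 200 bases before to 20 bases after the most upstream RefSeq start, 5′ to 3′ on the gene's strand. Capitals mark the amino acid response element core, TGATGNAAN on either strand, or the E-box CACGTG, the core of the lysosomal CLEAR element.
Slc7a9 (GRCm38.p6, chr7:35448892-35449111, plus strand): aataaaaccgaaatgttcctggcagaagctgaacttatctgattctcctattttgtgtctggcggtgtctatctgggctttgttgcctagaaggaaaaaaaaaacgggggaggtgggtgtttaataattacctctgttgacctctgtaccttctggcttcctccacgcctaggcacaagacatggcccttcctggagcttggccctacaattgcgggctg
Slc7a7 (GRCm38.p6, chr14:54417925-54418144, minus strand): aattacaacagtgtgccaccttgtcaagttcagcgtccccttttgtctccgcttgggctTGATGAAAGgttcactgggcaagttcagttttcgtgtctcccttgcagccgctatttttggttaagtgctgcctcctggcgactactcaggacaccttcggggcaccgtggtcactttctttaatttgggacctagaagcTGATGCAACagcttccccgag
Slc36a1 (GRCm38.p6, chr11:55204140-55204359, plus strand): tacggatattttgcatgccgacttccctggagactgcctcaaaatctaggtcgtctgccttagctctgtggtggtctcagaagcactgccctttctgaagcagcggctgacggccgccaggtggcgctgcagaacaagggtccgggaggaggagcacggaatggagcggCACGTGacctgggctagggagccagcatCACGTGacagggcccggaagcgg
Slc1a4 (GRCm38.p6, chr11:20332694-20332913, minus strand): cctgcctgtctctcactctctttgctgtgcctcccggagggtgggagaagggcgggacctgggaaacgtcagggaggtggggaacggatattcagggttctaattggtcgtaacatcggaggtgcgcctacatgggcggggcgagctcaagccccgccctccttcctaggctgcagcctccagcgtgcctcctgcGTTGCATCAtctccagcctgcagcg
Slc7a9 held neither motif in this window. The E-box of Slc36a1 occurred at −31 to −26 and again at −3 to 3 from its start. In windows of 250 bases before to 50 after the start, the response element core was present in 4 of 39 promoters of matched members (10.3%), against 3.95% of all 32851 promoters. These 4 promoters belong to 3 genes: Slc1a4, Slc7a11, the light chain of the cystine carrier, and Slc7a7. The Slc7a7 windows with the core overlap and share a site, which is thus counted in each of them. The E-box was present in 7 of 39 promoters (17.9%), against 7.15% of all promoters, and the other members with it were Slc38a7, Slc43a1, Slc38a5, Slc1a6, Slc1a7 and Slc7a14. Such a match is a description of the letters and shows no binding.

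Of the 41 members, 33 passed the filter on low counts and were tested with edgeR. Counts were 0 in every library for Slc36a3, Slc7a12 and Slc7a13, which allows up to 0.216 and 0.256 CPM in the Trim33-deficient and 0.232 and 0.293 CPM in the Control libraries (3 counts, counting error only). Of those tested, 6 had under 50 counts in every library. Another 5 members had too few counts for the edgeR test. Slc38a11 and Slc7a15 each had 1 count in all, Slc36a2 at most 4 counts in a library and Slc1a7 at most 7, and Slc38a8 had 5 and 4 counts in the Trim33-deficient libraries, against 18 and 1 in the Control libraries. The edgeR quasi-likelihood test called 0 members lower and 0 higher, against 0.014% and 0% of the 14259 genes tested. At an unadjusted p under 0.05 it gave 4 lower members (4.78% of all tested genes were lower at that level) and 1 higher (3.06%), where 7.84% of all tested genes passed in either direction. DESeq2 called 1 of 35 members lower, where it called 0.702% of genes lower, and 0 members higher, where it called 0.143% of genes higher and 0.845% in all. The authors' deposited table of 84 genes holds 0 members.

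The families did not move one way. Log2 fold changes of Trim33-deficient over Control were above 0 for 16 members and below 0 for 17, with a median of −0.070, against −0.0014 over all tested genes. They ran from −3.00 to 0.76, and 12 members lay within 0.25 of 0. Both Trim33-deficient libraries were below both Control libraries for 8 of the 33 members, as for 21.4% of all genes, and above them for 5, as for 19.3%. The sum over all 41 members was 1967 and 1830 CPM in Trim33-deficient libraries, against 1843 and 1741 CPM in Control libraries, and these groups overlap.

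**Figure D1:**
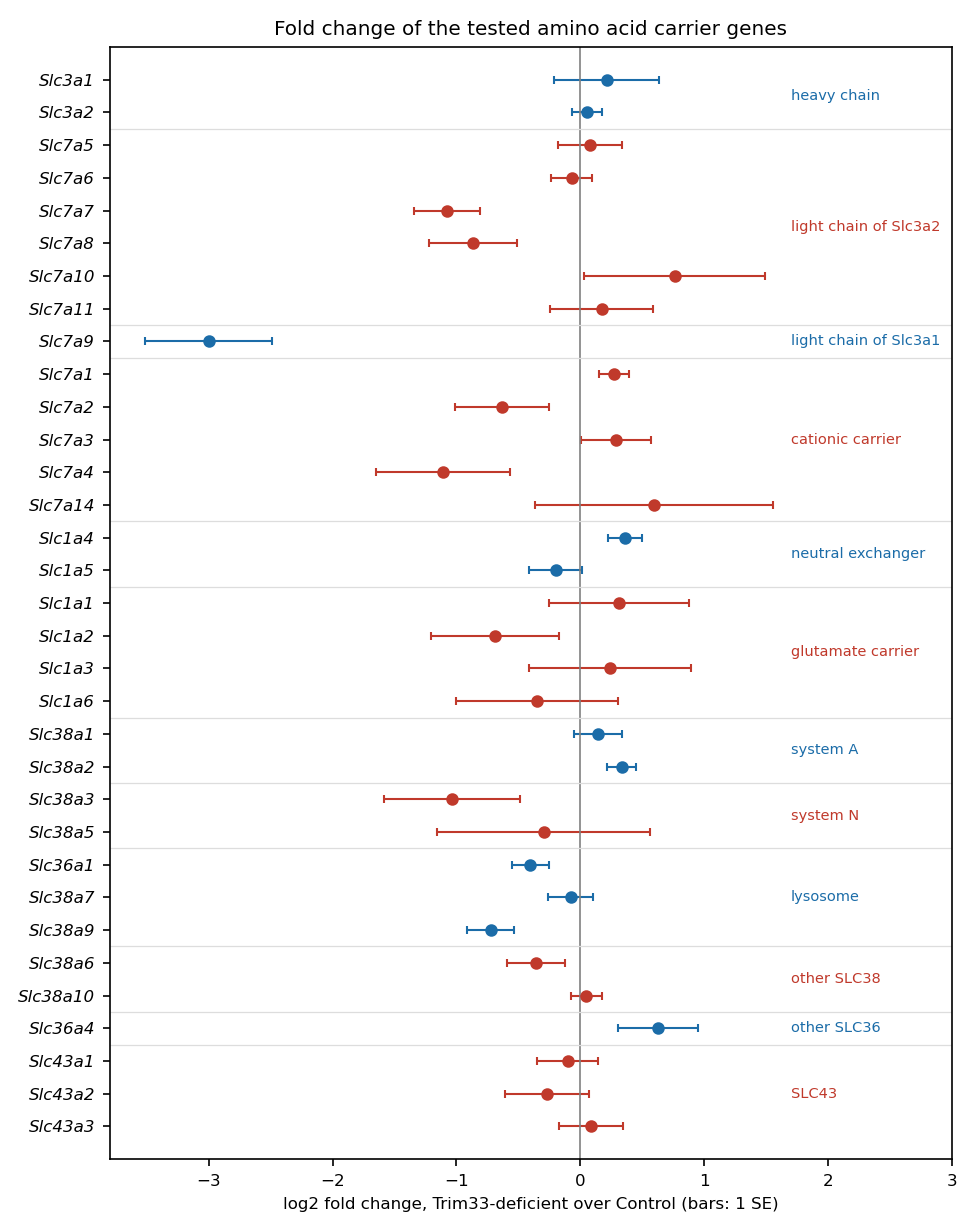
Log2 fold change of Trim33-deficient over Control (x axis) for the 33 tested members (rows), grouped by role, with alternating colours to part the roles. Points are edgeR estimates and bars 1 standard error; Slc7a9 at −3.00 lies far to the left of all other members, and most points scatter on both sides of 0.

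Slc7a9 had the lowest fold change of the set. It encodes the light chain of the apical carrier that reabsorbs cystine and cationic amino acids in kidney and intestine, and in humans its loss causes cystinuria. It had 10 and 4 counts in the Trim33-deficient libraries, against 59 and 43 in the Control libraries, or 0.721 and 0.342 CPM against 4.56 and 4.20 CPM. Both Trim33-deficient libraries were far below both Control libraries, and the gene passed the filter through its Control counts. The log2 fold change was −3.00 (SE 0.51), 8.00-fold lower. DESeq2 called it (adjusted p = 0.0211), and so did edgeR's likelihood ratio test (adjusted p = 0.000191), whereas the edgeR quasi-likelihood test did not (adjusted p = 0.395). The DESeq2 call was lost with the replicate block (adjusted p = 0.135) and without any single library (adjusted p from 0.149 to 1), while the log2 fold change stayed between −3.66 and −2.60. Visceral and yolk sac endoderm markers were also lower in both Trim33-deficient libraries, by the summed levels given above. Within each group the replicate with the higher marker sum had the lower Slc7a9 level. Single markers differed in direction: Control replicates 1 and 2 had 385 and 258 CPM of Afp, and 112 and 129 CPM of Cubn. The part of these markers in this result was not tested.

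The heavy chain that Slc7a9 pairs with did not share that size. Slc3a1 stood at 6.64 and 4.36 CPM in the Trim33-deficient libraries, against 5.95 and 3.52 CPM in the Control libraries, so the groups overlapped. Its log2 fold change of 0.21 (SE 0.42) had an edgeR adjusted p of 0.894, and its sign turned without Trim33-deficient replicate 1 (−0.11) or Control replicate 2 (−0.10). Slc7a9 counts per Slc3a1 count were 0.109 and 0.0784 in Trim33-deficient libraries, against 0.766 and 1.19 in Control libraries. The log2 ratio of Trim33-deficient minus Control libraries was −3.37, with an exact two-sided permutation p of 0.333, which is the smallest that 2 against 2 libraries can give. In GENCODE M21, 26.5% of the exon bases of Slc3a1 overlap the opposite-strand gene Prepl, so its counts can miss or mix such reads, since the strand setting is not known.

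Slc3a2 encodes the other heavy chain, CD98hc, which serves most light chains. It was among the most abundant members per kilobase of transcript, at 63.3 CPM per kilobase in Trim33-deficient and 61.0 in Control bodies. Its level was 177 and 179 CPM in the Trim33-deficient libraries, against 184 and 159 CPM in the Control libraries. The groups overlapped, with a log2 fold change of 0.054 (SE 0.12) and an edgeR adjusted p of 0.904, and this turned to −0.042 without Control replicate 2.

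Among the light chains that bind Slc3a2, a pair lay lower in Trim33-deficient bodies. Slc7a7 encodes the light chain of the basolateral exchanger that lets cationic amino acids out of absorptive epithelia in exchange for neutral ones and sodium. It stood at 14.9 and 12.6 CPM in Trim33-deficient libraries, against 34.7 and 23.1 CPM in Control libraries. The groups did not overlap, and Control replicate 1 was the highest. The log2 fold change was −1.07 (SE 0.27), 2.10-fold lower, which did not pass (edgeR adjusted p = 0.544, DESeq2 adjusted p = 0.151). DESeq2 called it without Control replicate 2 (log2 fold change −1.32, adjusted p = 0.0333), and without Control replicate 1 the edgeR value was −0.76. Its promoter is the one with a pair of response element cores shown above. Oxa1l on the opposite strand overlaps 7.00% of its exon bases. Summed visceral and yolk sac endoderm markers were also lower in both Trim33-deficient libraries. Within each group the replicate with the higher marker sum had the lower Slc7a7 level, while single markers differed in direction, as given above for Afp and Cubn. The part of these markers was not tested.

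Slc7a8, whose product exchanges large and small neutral amino acids at the basolateral side of epithelia, was at 5.77 and 9.57 CPM in Trim33-deficient libraries, against 11.7 and 16.2 CPM in Control libraries. These groups lay apart by less than the spread within either. Its log2 fold change of −0.87 (SE 0.36) had an edgeR adjusted p of 0.651. The value was −1.27 with Trim33-deficient replicate 2 left out and −0.54 with replicate 1 left out. The widely used light chains gave values near 0. Slc7a5, the main carrier of leucine and other large neutral amino acids in growing cells, stood at 227 and 171 CPM in Trim33-deficient libraries, against 227 and 149 CPM in Control libraries (log2 fold change 0.080, SE 0.26). Slc7a6, a widely expressed relative of Slc7a7, stood at 98.4 and 81.3 CPM in Trim33-deficient libraries, against 84.6 and 104 CPM in Control libraries (log2 fold change −0.070, SE 0.17). Both genes had overlapping groups. Slc7a11, the cystine and glutamate exchanger that feeds glutathione synthesis, stood at 1.88 and 1.79 CPM in Trim33-deficient libraries, against 1.78 and 1.46 CPM in Control libraries (log2 fold change 0.17, SE 0.42). Slc7a10, a carrier of small neutral amino acids, D-serine among them, had 12 and 15 counts in Trim33-deficient libraries, against 4 and 10 in Control libraries, with Lrp3 overlapping 17.9% of its exon bases on the other strand. Its log2 fold change of 0.76 (SE 0.73) became 0.12 when Control replicate 1 was left out and 1.76 when Control replicate 2 was.

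Seen as a pool, the light chains of Slc3a2 kept Slc7a5 as their main member. Per kilobase, Slc7a5 made up 64.9% and 61.5% of the pool in the Trim33-deficient libraries, against 61.1% and 49.9% in the Control libraries. The share of Slc7a7 was 6.60% and 6.99% in Trim33-deficient libraries, against 14.4% and 12.0% in Control libraries, and these groups did not overlap. The whole pool came to 99.3 and 78.9 CPM per kilobase in Trim33-deficient libraries, against 105 and 84.9 in Control libraries, with overlap. Replicate 1 of each group held the larger pool.

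**Figure D2:**
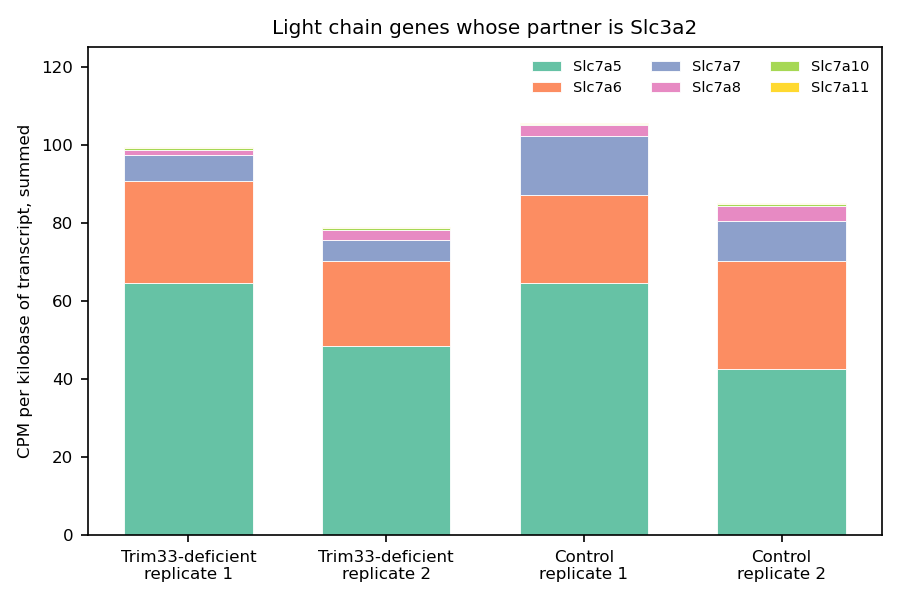
Stacked CPM per kilobase of transcript (y axis) of the 6 light chain genes whose partner is Slc3a2, in each of the 4 libraries (x axis). Slc7a5 is the largest segment of every bar (49.9% to 64.9% of the pool), and the Slc7a7 segment is thinner in both Trim33-deficient libraries (6.60% and 6.99% of the pool) than in the Control libraries (14.4% and 12.0%).

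The cationic carriers of the SLC7 family, which bring in arginine, lysine and ornithine without a heavy chain, differed in sign. Slc7a1, the broadly expressed form, stood at 106 and 92.5 CPM in Trim33-deficient libraries, against 82.7 and 81.3 CPM in Control libraries. Both Trim33-deficient libraries were higher, with a log2 fold change of 0.28 (SE 0.12, edgeR adjusted p = 0.661), or 0.18 when Trim33-deficient replicate 1 was left out. Slc7a3, expressed in brain and in pluripotent cells, was at 22.6 and 14.6 CPM in Trim33-deficient libraries, against 14.1 and 16.3 CPM in Control libraries. Trim33-deficient replicate 1 alone was high. Without it the log2 fold change of 0.29 (SE 0.28) turned to −0.054. Slc7a2, an inducible form known from liver and macrophages, was lower in both Trim33-deficient libraries, at 3.89 and 5.72 CPM, against 5.95 and 8.98 CPM in Control libraries (log2 fold change −0.63, SE 0.38, edgeR adjusted p = 0.699). Its value was −0.93 without Trim33-deficient replicate 2 and −0.31 without Control replicate 2. Slc7a4, a relative with no established substrate, had 13 and 8 counts in Trim33-deficient libraries, against 29 and 13 in Control libraries (log2 fold change −1.11, SE 0.54). Leaving out Control replicate 2 gave −1.44, and leaving out Control replicate 1 gave −0.64. P2rx6 overlaps 13.3% of its exon bases on the other strand. Slc7a14, a relative best known from the retina, had at most 13 counts in a library.

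The neutral exchangers of the SLC1 family parted as well. Slc1a4, which exchanges alanine, serine, cysteine and threonine, was at 60.2 and 55.7 CPM in Trim33-deficient libraries, against 41.8 and 48.4 CPM in Control libraries. Both Trim33-deficient libraries were higher for this gene, whose start carries the response element core shown above, and the log2 fold change was 0.36 (SE 0.14, edgeR unadjusted p = 0.0516, adjusted p = 0.639). Slc1a5, the glutamine exchanger of dividing cells, had overlapping groups and a log2 fold change of −0.20 (SE 0.21).

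For the glutamate carriers the replicate number separated the libraries more than the group did. Slc1a3, the carrier of astrocytes and radial glia, stood at 28.3 and 64.3 CPM in Trim33-deficient replicates 1 and 2, against 19.2 and 59.2 CPM in Control replicates 1 and 2. Its log2 fold change was 0.24 (SE 0.65). Slc1a6, known from Purkinje cells, was likewise higher in replicate 2 of each group, at 2.88 and 6.06 CPM in Trim33-deficient libraries and 3.01 and 8.40 CPM in Control libraries. Slc1a2, the main glutamate carrier of adult forebrain, was at 6.64 and 5.04 CPM in Trim33-deficient libraries, against 13.5 and 5.27 CPM in Control libraries. Control replicate 1 alone was high, and without it the log2 fold change of −0.69 (SE 0.52) turned to 0.14. Of the neuroectoderm markers 9 of 9 were below 0, with a median of −1.04, and 4 had opposite signs in the pairs. Their summed level was highest in Control replicate 1, the library in which Slc1a3 was lowest. It was 686 CPM there, against 343 and 320 CPM in the Trim33-deficient libraries and 267 CPM in Control replicate 2. The part of these markers was not tested. Slc1a1 had at most 16 counts in a library.

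In the SLC38 family the abundant system A carrier Slc38a2 lay higher in both Trim33-deficient libraries, without passing the test. Its product takes up alanine, glutamine and other small neutral amino acids with sodium and is known to be induced when amino acids run short. It stood at 439 and 414 CPM in Trim33-deficient libraries, against 321 and 355 CPM in Control libraries, and was the member with the highest level per kilobase in Trim33-deficient bodies (69.8 CPM per kilobase, against 55.3 in Control). The groups did not overlap. The log2 fold change was 0.34 (SE 0.12, edgeR unadjusted p = 0.0378, adjusted p = 0.624). Slc38a1, the other abundant system A carrier, had overlapping groups and a log2 fold change of 0.14 (SE 0.19). Slc38a2 counts per Slc38a1 count were 1.24 and 1.38 in Trim33-deficient libraries, against 0.937 and 1.42 in Control libraries, so that ratio overlapped (exact two-sided permutation p = 1).

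Slc38a3, a system N carrier of glutamine and histidine best known from liver and kidney, was at 12.5 and 6.06 CPM in Trim33-deficient libraries, against 26.5 and 11.6 CPM in Control libraries. The groups overlapped, but within each pair the Trim33-deficient library was the lower one, with log2 CPM differences of −1.08 and −0.92. The log2 fold change was −1.04 (SE 0.55, edgeR unadjusted p = 0.122), and with the replicate block the unadjusted p was 0.00857 and the adjusted p 0.290. Without Control replicate 1 the value was −0.33, and without Trim33-deficient replicate 1 it was −1.64. Slc38a6 was at 11.0 and 12.7 CPM in Trim33-deficient libraries, against 13.7 and 16.8 CPM in Control libraries (log2 fold change −0.36, SE 0.23). These groups did not overlap, and leaving out Control replicate 1 gave −0.51, Control replicate 2 −0.20. Slc38a10 had a log2 fold change of 0.049 (SE 0.13). The other system N gene, Slc38a5, had at most 22 counts in a library and opposite signs in the pairs.

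The 3 members grouped as lysosomal were all below 0 in log2 fold change, with values of different size. The grouping by role was a choice, and Slc36a4, given below, was outside it with a value above 0. Summed per kilobase of transcript, the 3 came to 19.391 and 23.208 CPM per kilobase in Trim33-deficient libraries. The Control libraries had 25.899 and 23.203, so the groups overlapped. Slc38a9, the arginine sensor and amino acid exporter that signals to mTORC1, stood at 13.0 and 12.0 CPM in Trim33-deficient libraries, against 20.6 and 20.6 CPM in Control libraries. The replicates of each group lay close together and the groups were well apart. Its log2 fold change was −0.72 (SE 0.19), 1.65-fold lower, with an edgeR unadjusted p of 0.0139 and adjusted p of 0.548 (DESeq2 adjusted p = 0.498). Leaving out any library kept it between −0.78 and −0.66. Slc36a1, a proton-coupled exporter of small neutral amino acids, was at 23.4 and 25.5 CPM in Trim33-deficient libraries, against 31.8 and 33.0 CPM in Control libraries. This gene, whose promoter carries the E-boxes shown above, had a log2 fold change of −0.40 (SE 0.15, edgeR unadjusted p = 0.0443, adjusted p = 0.630). Slc38a7, a lysosomal exporter of glutamine and asparagine, had overlapping groups at −0.078 (SE 0.18). Its promoter holds an E-box as well, so members with that motif differed in size.

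Slc36a4, a carrier of proline and tryptophan, stood at 9.45 and 11.0 CPM in Trim33-deficient libraries, against 5.25 and 8.01 CPM in Control libraries. The groups did not overlap, and the log2 fold change was 0.63 (SE 0.32, with an edgeR adjusted p of 0.674). Without Control replicate 1 it was 0.35, and without Control replicate 2 it was 0.96. The SLC43 genes had overlapping groups and opposite signs in the pairs. Slc43a1 and Slc43a2, which carry large neutral amino acids, had log2 fold changes of −0.10 (SE 0.25) and −0.27 (SE 0.34). Slc43a3, a nucleobase carrier in spite of its family name, had 0.088 (SE 0.26).

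**Figure D3:**
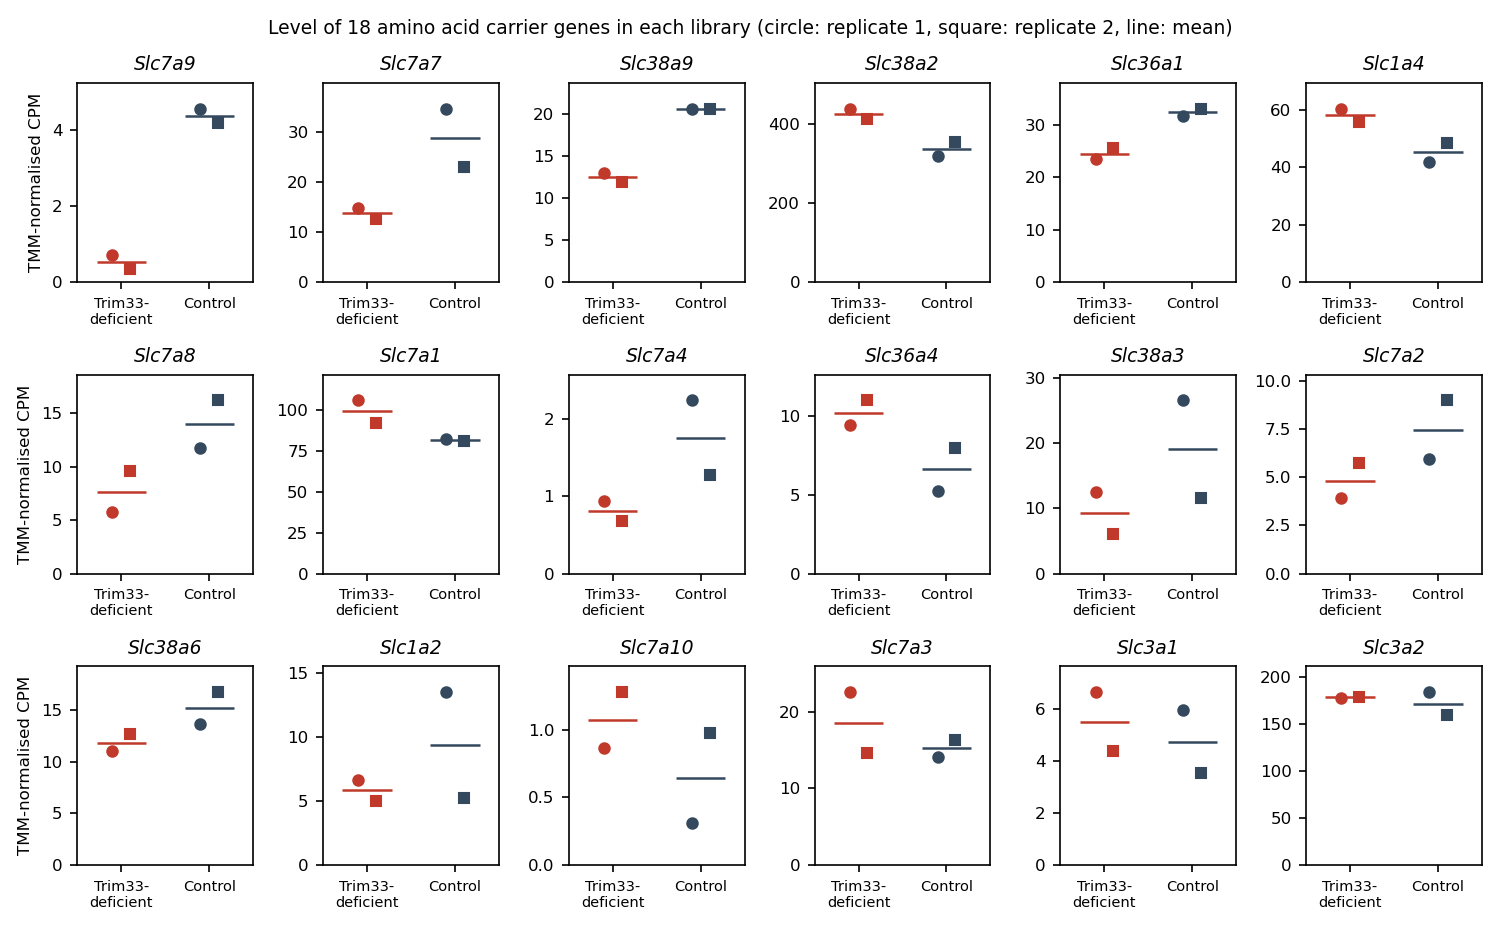
TMM-normalised CPM (y axis, from 0) in every library for 18 members, with Trim33-deficient libraries at the left and Control libraries at the right of each panel. Circles are replicate 1, squares replicate 2 and lines the mean; Slc7a9 lies at 0.721 and 0.342 CPM against 4.56 and 4.20 CPM, Slc38a9 shows tight replicates, and the groups of Slc3a1 and Slc3a2 overlap.

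Within the pairs taken by replicate number, 12 members were lower in both pairs, 12 higher in both and 9 of opposite sign. Over all tested genes these shares were 29.8%, 30.3% and 39.9%. The log2 CPM differences of pairs 1 and 2 were −2.42 and −3.11 for Slc7a9, −1.21 and −0.87 for Slc7a7, and −0.66 and −0.78 for Slc38a9. Slc38a5 had the widest disagreement, at 1.03 in pair 1 and −1.77 in pair 2.

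**Figure D4:**
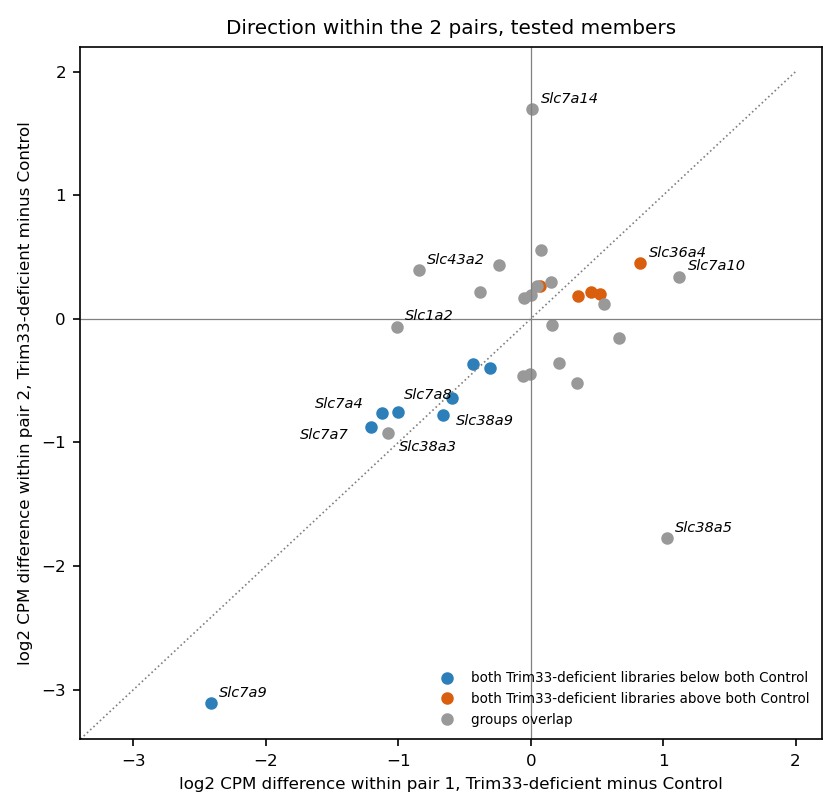
Difference in log2 CPM (prior count of 2), Trim33-deficient minus Control, within pair 1 (x axis) and pair 2 (y axis) for the 33 tested members. Blue and orange points are members whose groups lie apart, grey points overlap, and the dotted line marks equal differences; Slc7a9 sits at −2.42 and −3.11, and Slc38a5 at 1.03 and −1.77.

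Genes that work beside the carriers were counted for comparison, with 0 of each list called by edgeR and, beside the gene given below, 0 by DESeq2. Among regulators and targets of the amino acid stress factor ATF4, 17 of 20 had log2 fold changes above 0 with a median of 0.11. At an unadjusted p under 0.05, 4 were higher and 1 lower. Atf3, a stress-induced transcription factor, was at 0.83 (SE 0.16) and Trib3, a pseudokinase induced by amino acid shortage, at 0.59 (SE 0.19), while the mTORC1 inhibitor gene Ddit4 was at −0.88 (SE 0.12) and was called lower by DESeq2 (adjusted p = 0.00107). Atf4 itself, named after its value was seen, stood at 284 and 284 CPM in Trim33-deficient libraries, against 200 and 235 CPM in Control libraries (log2 fold change 0.38, SE 0.12, edgeR adjusted p = 0.608).

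Enzymes of amino acid synthesis leaned the other way, with 19 of 25 below 0, a median of −0.20, and 3 were lower and 0 higher at an unadjusted p under 0.05. Glutamine synthetase, Glul, was at −0.66 (SE 0.15), the threonine dehydrogenase gene Tdh at −1.25 (SE 0.35) and Shmt1, which interconverts serine and glycine, at −0.47 (SE 0.14). Tdh is also in the list of pluripotency markers, of which 8 of 9 were below 0 with a median of −0.92, and their part in its value was not tested. Lysosomal sensing and mTORC1 genes were split, with 17 above and 14 below 0, a median of 0.070 and 0 past an unadjusted p of 0.05. Cytosolic aminoacyl-tRNA synthetases had 11 above and 9 below, with a median of 0.028 and 1 past that level in each direction. Alanyl-tRNA synthetase, Aars, was at 0.40 (SE 0.11), and aspartyl-tRNA synthetase, Dars, at −0.39 (SE 0.13). Among glutathione and NRF2 genes 9 of 15 lay above 0 (median 0.18), and 1 was lower at that level, glutathione reductase, Gsr, at −0.61 (SE 0.16). Of the other carriers of amino acids and peptides, 18 of 24 were tested and 12 lay below 0, with a median of −0.32, and 4 were lower and 1 higher at that level. There the peptide carrier Slc15a2 was at −1.01 (SE 0.33), the mitochondrial glutamate carrier Slc25a22 at −0.47 (SE 0.15) and the vesicular GABA carrier Slc32a1 at 2.57 (SE 0.79). Slc32a1 had 44 and 12 counts in Trim33-deficient libraries, against 4 and 4 in Control libraries, and passed the filter through its Trim33-deficient counts. Its log2 CPM differences were 2.82 in pair 1 and 1.10 in pair 2.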

How the data were processed

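Total RNA from the embryoid bodies went, per the labels, into standard Illumina libraries. The submitters' processing notes name the tools STAR, HTSeq and DESeq and, as build, mm9, without versions. The strand setting was not found in these sources. The authors deposited raw counts per gene symbol, and 5 rows that name no gene (55.5% to 56.0% of reads without a feature, at most 0.200% ambiguous) entered neither library sizes nor tests. Their deposited table of 84 genes, used here only for membership, gives an adjusted p-value of at most 0.0496.

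Genes passing filterByExpr (14259) were scaled by TMM and tested in edgeR 4.0.16 (the two-sided quasi-likelihood test, Benjamini-Hochberg over all tested genes, threshold 0.05) in R 4.3.3, with group as the sole term. DESeq2 1.42.0 and limma 3.58.1 voom were alternatives. Standard errors were derived from the F statistic (|log2 fold change|/√F). Levels are TMM-normalised CPM. Levels per kilobase use the longest GENCODE M21 (GRCm38) transcript, and promoters come from RefSeq (GRCm38.p6, 30 of 41 members matched). The script was tested on simulated data.

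The labels speak of independent pairs, so replicate numbers were taken as pairs. After group means were removed, the Pearson r across genes was 0.236 for libraries with the same number and −0.236 for crossed numbers. With 2 libraries a group these values mirror each other by construction. Either pairing could have come out positive, so the sign alone cannot show that the numbers mark true pairs. Replicates were not duplicate deposits (chi-square per degree of freedom 20.8 in Trim33-deficient and 30.4 in Control libraries). The labels do not tie replicates to separate cell lines, and p-values therefore reflect the spread between libraries, which may be technical. The members and lists were chosen with earlier results of these data known. Values in every library are given for members called by edgeR or DESeq2, the 16 with the smallest edgeR p and both heavy chain genes. Of each related list the 3 genes with the smallest p could be named. Any other member was named after its values were seen.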

Additional observations from a re-analysis of the deposited data

How the results depend on the processing

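Over the whole table the count of genes called was 2 in the edgeR quasi-likelihood test and 2 with the replicate block. It was 14 with no low-count filter, 136 with DESeq2, 169 with the likelihood ratio test, 0 with limma voom, 192 with DESeq2 and the replicate block, 4 at an adjusted p under 0.1, and 0 to 91 with each library left out, the highest without Control replicate 2. Members called were 0 with the quasi-likelihood test, with and without the replicate block and with each library left out, 1 with DESeq2 and 1 with the likelihood ratio test (Slc7a9 in both), and 0 with DESeq2 and the replicate block, where the log2 fold change of Slc7a9 was −3.10 (adjusted p = 0.135). DESeq2 with a library left out gave −3.66 to −2.60 for Slc7a9, not called in any such fit, and these DESeq2 fits with a library left out were chosen after seeing the data. The members' median was −0.091 without Control replicate 2 to 0.054 without Control replicate 1, and −0.10 to −0.052 in the other alternatives. Leaving out a library also turned the sign of Slc1a2 (−1.20 to 0.14), Slc3a1 (−0.11 to 0.64), Slc3a2 (−0.042 to 0.16) and Slc7a3 (−0.054 to 0.57). The other 14 of 18 members kept their direction in every alternative in which they were tested, and the replicate block changed no other member's call. A stricter filter, a mean of at least 50 counts, left 26 members. Slc7a9, Slc7a4 and Slc7a10 fell below it and were not tested there. The cause of these changes was not tested. A library left alone in its group was taken to vary as the other group does. With 2 libraries a group, members under 50 counts allow large differences to be missed.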

Other observations

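Summed per kilobase of transcript, the system A carriers Slc38a1 and Slc38a2 came to 120 and 109 CPM per kilobase in Trim33-deficient libraries, against 99.5 and 92.5 in Control libraries, and the groups did not overlap. The cationic carriers came to 23.9 and 19.2 CPM per kilobase in Trim33-deficient libraries, against 18.2 and 18.8 in Control libraries. The glutamate carriers came to 8.84 and 18.2 CPM per kilobase in Trim33-deficient replicates 1 and 2, against 7.33 and 18.1 in Control replicates 1 and 2, and Slc1a3 made up 59.2% to 79.6% of that sum in the 4 libraries. Slc38a7 made up 69.5% and 73.3% of the lysosomal sum in Trim33-deficient libraries, against 67.8% and 63.0% in Control libraries.

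Slc7a7 counts per Slc3a2 count were 0.0842 and 0.0702 in Trim33-deficient libraries, against 0.189 and 0.146 in Control libraries, with an exact two-sided permutation p of 0.333, the smallest that 2 against 2 libraries can give. Slc7a5 counts per Slc3a2 count were 1.28 and 0.953 in Trim33-deficient libraries, against 1.23 and 0.938 in Control libraries (exact two-sided permutation p = 0.667). Cubn, the protein uptake receptor of absorptive epithelia, had a log2 fold change of −4.76 (SE 0.17, edgeR adjusted p = 0.0166), beside −3.00 for Slc7a9 and 0.21 for Slc3a1. It was named after its value was seen.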
